A study of Mus musculus with 2 samples.

Results

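The let-7 family of microRNA (miRNA) genes was examined in small RNA of the mouse embryonic face. Its genes were taken as every row whose GENCODE symbol begins with Mirlet7, which gave 9 rows of 1973. Mirlet7e has no row of its own, and the counts on the opposite strand of Gm25927, a gene annotated over the same hairpin, were read in its place. This gave 10 let-7 genes of the 11 in the annotation. The other gene, Mirlet7f-1, also has no row of its own.

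The tissue was the embryonic facial prominence, the buds of mesenchyme under epithelium that form the face and jaws, from strain B6NCrl at embryonic day 14.5. There were 2 biological replicates by the labels, with no treatment, no altered allele and no second group. The labels call each sample the face of a single pup and also give its sex as a pool of males and females, so whether a replicate was 1 embryo or several is not settled. Both samples carry the same pup and dam numbers but were collected on different days, and day and replicate cannot be told apart.

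Let-7 miRNAs are cut from hairpin precursors, and the strand kept from the 5′ side of the hairpin, the guide, directs repression of messenger RNAs that pair with its seed, bases 2 to 8. Known targets include Lin28a and Hmga2, and the family is known for low levels in pluripotent cells and rising levels as embryonic tissues differentiate. LIN28 proteins bind let-7 precursors and block their processing, so gene copies can differ in transcription and in processing.

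The guides are shown first because the deposited counts cannot be read without them: a read of a guide that several members share cannot be given to any single gene. The mature sequences below are those of RefSeq on GRCm38.p6, written 5′ to 3′ with the seed in capitals. The symbols of all 11 let-7 genes were matched. Mir98, a gene of the same seed outside the Mirlet7 symbols, is added as the neighbour of Mirlet7f-2.
let-7i: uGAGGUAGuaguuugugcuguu
let-7g: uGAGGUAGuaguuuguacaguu
let-7d: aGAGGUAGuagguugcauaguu
let-7e: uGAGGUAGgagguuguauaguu
let-7b: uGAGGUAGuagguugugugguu
let-7f: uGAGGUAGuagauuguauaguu
let-7a: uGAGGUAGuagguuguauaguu
let-7c: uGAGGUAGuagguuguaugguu
miR-98: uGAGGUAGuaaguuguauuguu
All of these guides are 22 bases long and carry the seed GAGGUAG. The counts are per hairpin gene and were not scaled to length, so folds between genes compare counts of reads, not amounts of guide. The 11 let-7 genes encode 8 different guides, since let-7a, let-7c and let-7f each come from a pair of genes. With positions counted from 1 at the 5′ end and the base of let-7a given first, let-7c differs from let-7a by A19G, let-7b by A17G and A19G, let-7e by U9G, let-7f by G12A and let-7d by U1A and U16C. In the same notation let-7g differs from let-7a by G12U and U18C, and let-7i by G12U, A17G, U18C and A19U. None of these changes lies in the seed.

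Gene-strand miRNA counts totalled 2719153 in replicate 1 and 6602050 in replicate 2, and levels are given as CPM, counts scaled to a common library size by these totals. Reads with several positions in the genome made up 29.8% and 28.5% of all reads and belong to no gene. They numbered 4.48 and 4.05 times the let-7 counts, and how many were let-7 was not analysed here. The tissue label was checked against marker miRNAs. All 7 epithelial markers, 4 mesenchymal markers and 2 cartilage markers were counted in both libraries. Their sums were 52450 and 67435 CPM, 17643 and 12119 CPM, and 43454 and 41703 CPM. Mir199a-1, Mir199a-2 and Mir199b share mature sequences, so reads with several positions could be missing from the mesenchymal sum. Most of that sum was Mir214, at 16135 and 11066 CPM. The sums are therefore not compared between cell types. Of 7 neural markers only Mir9-3 and Mir137 had counts, with a sum of 743 and 528 CPM, while the 3 Mir124a rows and Mir9-2 were at 0 and Mir9-1 has no row. The Mir124a genes encode the same mature miRNA, and so do the Mir9 genes, so reads with several positions could leave these rows at 0, and the neural content is not read from them.

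The let-7 genes together held 373237 counts in replicate 1 and 941288 in replicate 2. Set against the gene-strand miRNA counts, the family reached 13.7% in replicate 1, with a 95% Wilson interval of 13.7 to 13.8. It reached 14.3% in replicate 2, with an interval of 14.2 to 14.3. The 2 libraries lay close together, with a mean of 139919 ± 3757 CPM (SD, n = 2). The intervals cover counting error only and take each read as independent. They also treat the Mirlet7e counts as part of the totals, though these counts lie on the opposite strand and are outside them. Without the Mirlet7e counts the mean was 134798 CPM, and with the both-strand total as denominator it was 133825 CPM. No molecular identifiers are described, so whether reads were copies of the same molecule is not known. In whole tissue, fewer cells of a type and less RNA per cell cannot be told apart.

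Most of the let-7 counts were those of Mirlet7i and Mirlet7g. Reads with several positions are not among these counts, so the shares below are not shares of mature let-7. Mirlet7i alone made up 53.2% of the let-7 counts in replicate 1 and 58.2% in replicate 2, and Mirlet7g 32.0% and 26.6%. Their sum was steadier than either, at 85.2% and 84.8%. Mirlet7d, Mirlet7e and Mirlet7b followed with 6.92%, 3.76% and 2.43% in replicate 1 and 6.92%, 3.56% and 2.51% in replicate 2. By these counts the highest gene, Mirlet7i, exceeded the lowest, Mirlet7c-1, 517-fold in replicate 1 and 538-fold in replicate 2. The guide of Mirlet7c-1 is shared with another gene, so reads of it may be missing from its counts.

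**Figure D1:**
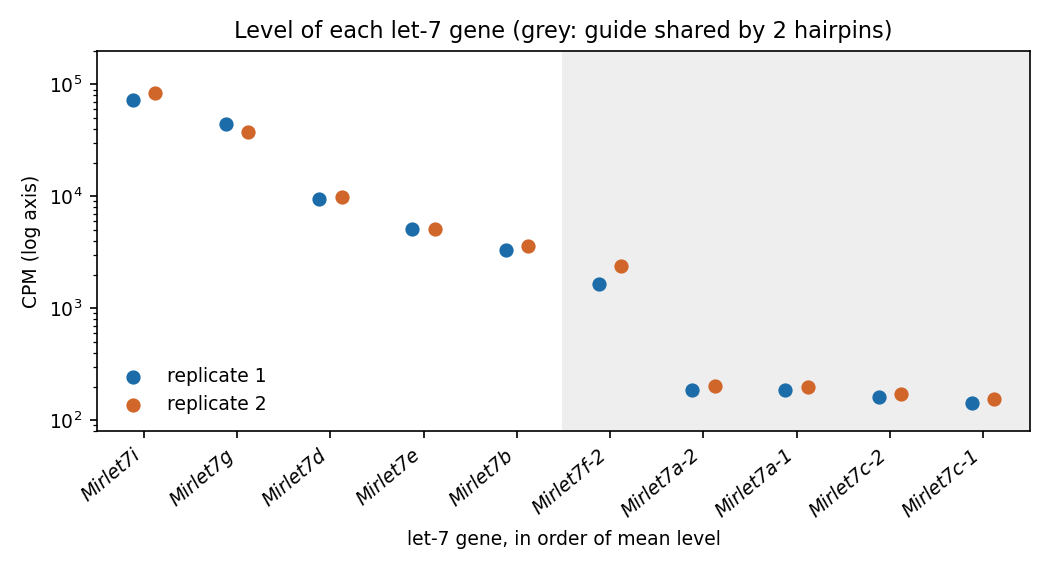
Level of each let-7 gene in CPM, scaled to gene-strand miRNA counts, on a log axis, with a point for each replicate. The genes run from Mirlet7i at 73051 and 82998 CPM to Mirlet7c-1 at 141 and 154 CPM, and the replicates lie close together beside the spread between genes.

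**Figure D2:**
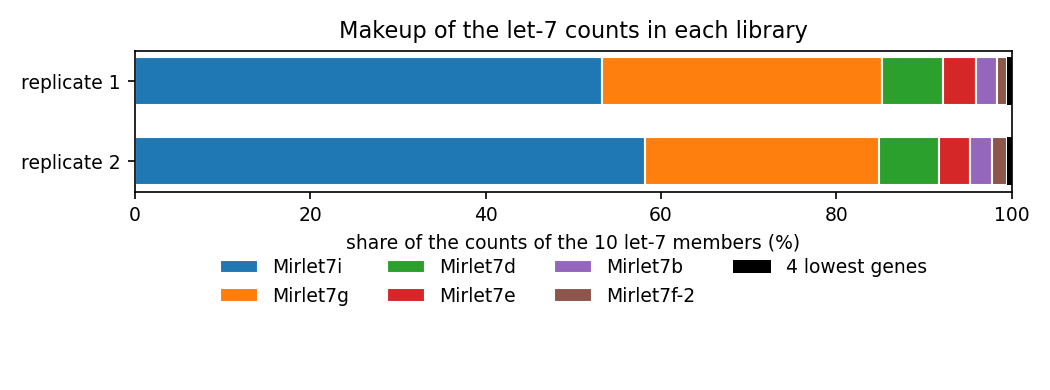
Share of the let-7 counts held by each gene in each replicate, in percent. Mirlet7i and Mirlet7g together hold 85.2% in replicate 1 and 84.8% in replicate 2, with a larger Mirlet7i share in replicate 2.

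Mirlet7i (ENSMUSG00000065406.2) lies on the minus strand at chr10:122985640-122985724 of mm10, in an exon of D630033A02Rik, which the annotation calls a transcribed processed pseudogene. It had 198636 counts (73051 CPM) in replicate 1 and 547960 (82998 CPM) in replicate 2. At 78025 ± 7034 CPM (SD, n = 2) it ranked first of all 1973 rows.

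Mirlet7g (ENSMUSG00000065440.1) lies on the plus strand at chr9:106178840-106178927, in an intron of Wdr82, which encodes a subunit of a histone H3 lysine 4 methyltransferase complex. It had 119348 counts (43892 CPM) and 250259 counts (37906 CPM), a mean of 40899 ± 4232 CPM (SD, n = 2), and ranked 5 among all rows. Mirlet7i was above Mirlet7g in both libraries, 1.66-fold in replicate 1 and 2.19-fold in replicate 2. Their guides differ only by A17G and A19U, with the base of let-7g first, so a read that ends before position 17 could come from either gene.

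Mirlet7d (ENSMUSG00000065453.1) lies on the minus strand at chr13:48536012-48536114, in an exon of the long noncoding RNA gene 6720427I07Rik. Its level was 9501 CPM in replicate 1 and 9870 in replicate 2, from 25836 and 65164 counts. It is the only guide of the family that starts with an A.

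Mirlet7e lies on the plus strand at chr17:17830352-17830444, in an intron of Spaca6, which encodes a sperm protein needed for fusion with the egg. The row that covers it, Gm25927 (ENSMUSG00000092799.1), is annotated on the minus strand and had 0 counts on its own strand in both libraries. On the opposite strand, that of Mirlet7e, it held 14032 counts (5160 CPM) and 33542 counts (5081 CPM). With a mean of 5120 ± 56.5 CPM (SD, n = 2), Mirlet7e came after Mirlet7i, Mirlet7g and Mirlet7d by counts.

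Mirlet7b (ENSMUSG00000065564.1) lies on the plus strand at chr15:85707319-85707403, in an exon of the long noncoding RNA gene Lncppara. It was counted at 3332 CPM in replicate 1 and 3581 CPM in replicate 2, from 9060 and 23641 counts. The levels of Mirlet7i, Mirlet7g, Mirlet7d, Mirlet7e and Mirlet7b did not overlap between neighbours in this order in either library, and each mean was 1.48-fold to 4.22-fold above the next.

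The genes that share a guide were all lower. The let-7a, let-7c and let-7f guides occur in 6 of the 11 let-7 hairpins, each in 2 of them, and a read of exactly those 22 bases has more than 1 position. Within the 1005 mouse hairpins of the RefSeq table, a read that starts at the first guide base has to run 2 bases past the guide to single out a let-7a or let-7c gene, and 1 base past it for let-7f. The guides with the bases that follow, up to the first point that is unique, are shown with those bases in capitals.
Mirlet7a-1: ugagguaguagguuguauaguuUU
Mirlet7a-2: ugagguaguagguuguauaguuUA
Mirlet7c-1: ugagguaguagguuguaugguuUA
Mirlet7c-2: ugagguaguagguuguaugguuUU
Mirlet7f-1: ugagguaguagauuguauaguuG
Mirlet7f-2: ugagguaguagauuguauaguuU
The counts of these genes therefore come from longer forms, from the 3′ arm of the hairpin or from other parts of it, if only reads with a single position were counted. The column layout is that of STAR gene counts, which keep such reads only, and reads with several positions were tallied apart from the genes. The counting tool is not given in the sources used here. The files do not divide counts by arm, so the levels below are not levels of mature let-7a, let-7c or let-7f.

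Mirlet7f-2 (ENSMUSG00000065602.1), on the plus strand at chrX:151912346-151912428 in an intron of the ubiquitin ligase gene Huwe1, was the highest of these. It had 4495 counts (1653 CPM) in replicate 1 and 15905 counts (2409 CPM) in replicate 2, a mean of 2031 ± 535 CPM (SD, n = 2). It stood 10.4-fold above the next let-7 gene, and below Mirlet7b in both libraries.

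The let-7a and let-7c genes were the lowest 4 of the 10 counted members. Mirlet7a-2 (ENSMUSG00000092770.1) had 505 and 1345 counts, which is 186 and 204 CPM. It lies on the plus strand at chr9:41536716-41536811, in an intron of the noncoding genes 3110039I08Rik and Gm49317. Mirlet7a-1 (ENSMUSG00000065421.2), on the minus strand at chr13:48538179-48538272 in an exon of 6720427I07Rik, had 504 and 1315 counts, or 185 and 199 CPM. The replicate values of these let-7a genes overlap, and their ratio was 1.00 and 1.02 in the 2 libraries, so their order is not resolved.

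Mirlet7c-2 (ENSMUSG00000065608.1), on the plus strand at chr15:85706603-85706697 in an exon of Lncppara, had 437 and 1138 counts, or 161 and 172 CPM. Mirlet7c-1 (ENSMUSG00000065557.2), on the plus strand at chr16:77599657-77599750 in an intron of the noncoding gene Mir99ahg, had 384 and 1019 counts, or 141 and 154 CPM. The ratio of Mirlet7c-2 to Mirlet7c-1 was 1.14 in replicate 1 and 1.12 in replicate 2. These 4 genes lie on different chromosomes, and their means span 148 to 195 CPM.

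Mirlet7a-1 and Mirlet7c-2 share their 3′ arm as well, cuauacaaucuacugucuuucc in both, which is shown because it leaves these genes with no arm of their own. They are the only 2 of the 11 genes for which this holds within the hairpin table. Their levels, 192 ± 9.78 and 167 ± 8.24 CPM (SD, n = 2), lay within the range of Mirlet7a-2 and Mirlet7c-1, whose 3′ arms occur in 1 hairpin each.

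Set side by side, the 5 members whose guide occurs in 1 hairpin summed to 137186 ± 3182 CPM and ranged from 3456 to 78025 CPM. The 5 whose guide occurs in 2 hairpins summed to 2732 ± 575 CPM (SD, n = 2 for both) and ranged from 148 to 2031 CPM. The first set held 98.3% of the let-7 counts in replicate 1 and 97.8% in replicate 2, and the ranges do not overlap. Lower production of the let-7a, let-7c and let-7f genes and loss of their reads to several positions cannot be told apart in these counts.

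Several let-7 genes sit together and are transcribed from the same strand, so neighbours give a comparison within a locus. On chromosome 13, 6720427I07Rik carries Mirlet7a-1, then Mirlet7f-1 after 261 bases, then Mirlet7d after a further 1714 bases. Mirlet7d exceeded Mirlet7a-1 by 51.3-fold in replicate 1 and 49.6-fold in replicate 2. On chromosome 15, Mirlet7c-2 and Mirlet7b lie 621 bases apart in Lncppara, and Mirlet7b was 20.7-fold and 20.8-fold higher. In both loci the gene with a guide of its own was the higher by a ratio that differed little between the libraries.

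Mirlet7f-1 (chr13:48537829-48537917, minus strand) was read in the same way as Mirlet7e, from a row the rule does not include and that was chosen after its values were seen. Gm24111, annotated over it on the plus strand, had 2 and 3 counts on its own strand and 286 and 748 on the opposite strand, which is that of Mirlet7f-1. That corresponds to 105 and 113 CPM, a mean of 109 ± 5.74 CPM (SD, n = 2), close below the 4 let-7a and let-7c genes. Mirlet7f-2, the other gene of the same guide, was 15.7-fold higher in replicate 1 and 21.3-fold higher in replicate 2. By counts the let-7f pair was thus far more unequal than the let-7a or let-7c pair. A read has to run 1 base past the guide to single out a let-7f gene, but 2 for let-7a or let-7c. The pairs are therefore not compared on like reads, and the contrast is not one of production.

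**Figure D3:**
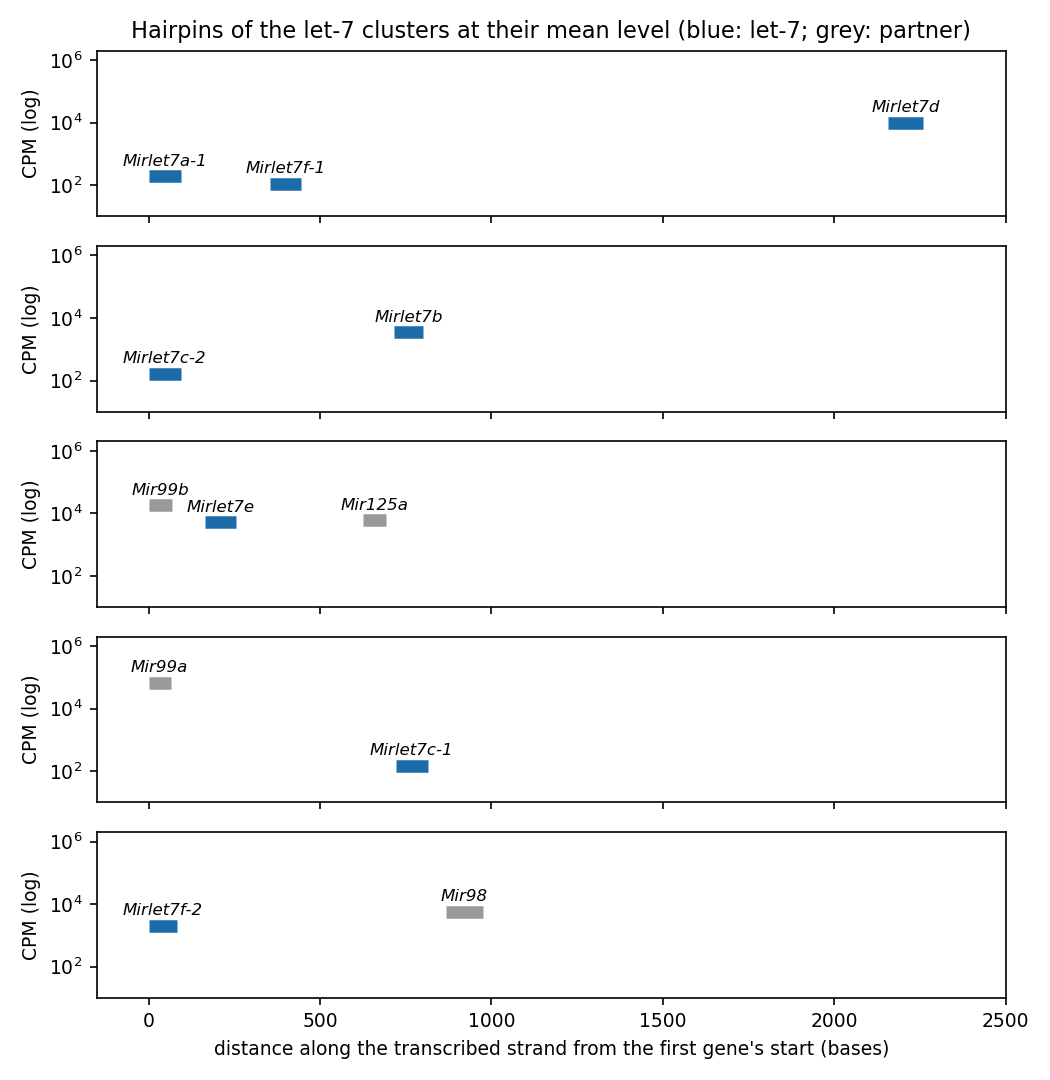
Mean level in CPM, on log axes, of hairpins in 5 let-7 clusters, at their distance in bases from the first gene of each cluster along the transcribed strand. Bars mark the extent of each hairpin, blue for let-7 genes and grey for other miRNAs. Mirlet7d and Mirlet7b lie well above their let-7 neighbours, and Mirlet7f-1 is read from the opposite strand of Gm24111.

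Mirlet7c-1, Mirlet7a-2 and Mirlet7e have neighbours of other miRNA families. Those of the miR-99 and miR-100 family share a seed among themselves, and those of the miR-125 family are homologues of worm lin-4, which acts with let-7 in developmental timing. Mir99a lies 656 bases from Mirlet7c-1 and was counted at 63132 and 71776 CPM, 447 and 465 times Mirlet7c-1. Mir125b-2, 46522 bases away on the other side, had 743 and 660 CPM, or 5.26 and 4.28 times Mirlet7c-1.

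At the Mirlet7a-2 locus the order was alike. Mir100, 5211 bases away, had 21393 and 24557 CPM, and Mir125b-1, 45114 bases away, had 1692 and 1337 CPM. These were 115 and 121 times, and 9.11 and 6.56 times, the level of Mirlet7a-2. In both loci the miR-99 or miR-100 row had far more counts than the let-7 row, and the miR-125b row lay between them. Mir125b-1 and Mir125b-2 encode the same guide, miR-125b, so the limit given for the let-7a and let-7c rows holds for these as well, and the order is one of counts, not of production.

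Mirlet7e, whose guide is its own, stood much closer to its neighbours. Mir99b, 94 bases away, had 16479 and 19527 CPM, which is 3.19 and 3.84 times Mirlet7e. Mir125a, 367 bases away, had 5921 and 6001 CPM, only 1.15 and 1.18 times Mirlet7e. Mir98, which carries the let-7 seed and lies 785 bases from Mirlet7f-2 in the Huwe1 intron, had 5438 and 6075 CPM. It exceeded Mirlet7f-2 by 3.29-fold in replicate 1 and 2.52-fold in replicate 2, and at 5757 ± 450 CPM (SD, n = 2) it would stand between Mirlet7d and Mirlet7e in the family.

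**Figure D4:**
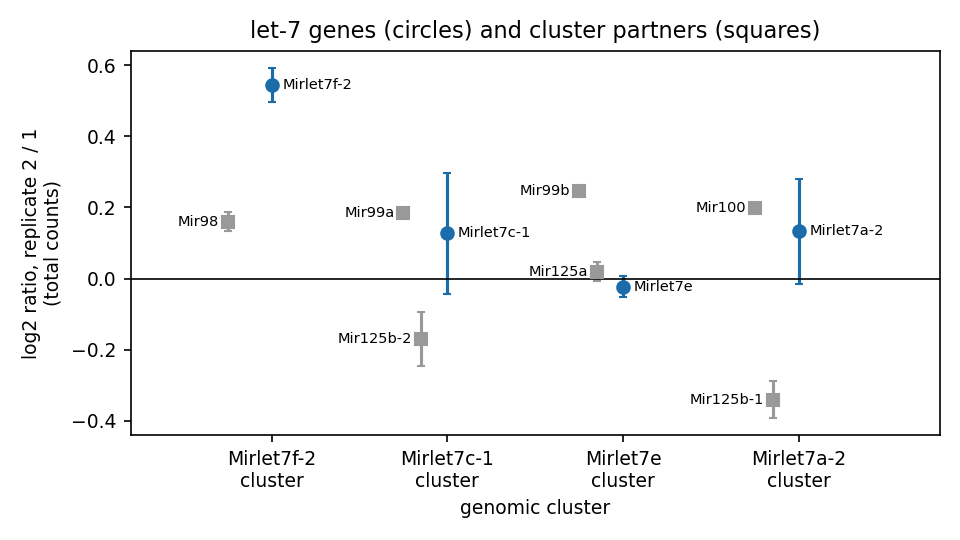
Log2 ratio of replicate 2 over replicate 1 by total counts, for let-7 genes (circles) and their neighbouring miRNAs (squares). The clusters are those of Mirlet7f-2, Mirlet7c-1, Mirlet7e and Mirlet7a-2, and bars are 95% counting intervals. Mir125b-1 lies lowest at -0.34 and Mirlet7f-2 highest at 0.54.

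The hairpin loop was examined because LIN28 proteins are known to bind let-7 precursors at a GGAG motif. The letters GGAG were searched on the RNA strand between the annotated 5′ and 3′ arms, and 9 of the 11 let-7 hairpins held them there. In whole hairpins, 447 of the 1005 mouse hairpins of the table held GGAG on the RNA strand (44.5%), against 9 of 11 let-7 hairpins, and 613 (61.0%) held it on either strand, against 10 of 11. The loops of the highest 2 members, and of the 2 let-7 genes without the motif, are shown with GGAG in capitals.
Mirlet7i loop: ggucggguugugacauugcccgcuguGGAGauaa
Mirlet7g loop: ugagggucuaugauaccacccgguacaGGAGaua
Mirlet7b loop: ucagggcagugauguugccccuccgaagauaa
Mirlet7c-2 loop: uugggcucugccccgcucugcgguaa
The motif ends 4 bases before the 3′ arm in Mirlet7i and 3 bases before it in Mirlet7g. The 8 counted members with GGAG in the loop ranged from 148 to 78025 CPM. Mirlet7b and Mirlet7c-2, without it, were at 3456 and 167 CPM, inside that range. Together they held 2.54% of the let-7 counts in replicate 1 and 2.63% in replicate 2. The Mirlet7b loop holds the letters GAAG, which end 4 bases before the 3′ arm, as GGAG does in Mirlet7i. The Mirlet7c-2 loop holds no GAAG. In whole hairpins both genes hold GAAG on the RNA strand, as do 329 of the 1005 hairpins (32.7%). A match describes the letters only, and binding was not measured.

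The 2 libraries were then compared gene by gene with an exact two-sided binomial test over the 373 genes with a mean of at least 10 counts. It asks whether the counts of 2 libraries differ beyond counting error and not whether conditions differ, since there is 1 group. Ratios are replicate 2 over replicate 1 on the log2 scale, first with TMM library sizes, which assume that most genes are alike, and then with total counts. With TMM, 9 of the 10 let-7 genes were higher in replicate 2 and 1 was lower. Of all tested genes 27.6% were called higher and 24.7% lower. Genes with more counts were called more often. With the filter raised to a mean of at least 100 counts, which all 10 let-7 genes pass, 96 of 262 genes were called higher and 92 lower. With total counts, 4 let-7 genes were higher, 1 was lower and 5 were not called, against 17.2% and 35.7% of all tested genes. The change of scale moved every ratio by 0.13. The median log2 ratio of the let-7 genes was 0.23 with TMM and 0.10 with total counts, beside -0.02 and -0.14 over all tested genes.

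Mirlet7g was the only member lower in replicate 2 under both scalings. It went from 43892 to 37906 CPM, a log2 ratio of -0.21 by total counts with a counting standard error of 0.0051, and of -0.09 with TMM (exact binomial test, Benjamini-Hochberg adjusted p = 5.22e-63). Mirlet7i moved the other way, by 0.18 with total counts and 0.31 with TMM, with a counting standard error of 0.0038. The 2 largest members thus differed between the libraries in opposite directions, and the ratio of Mirlet7i to Mirlet7g was 1.93 ± 0.371 (SD, n = 2).

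Mirlet7f-2 had the largest log2 ratio of the 10, 0.67 with TMM (exact binomial test, adjusted p = 1.59e-178) and 0.54 with total counts (adjusted p = 1.89e-116), with a counting standard error of 0.024. Mir98, in the same Huwe1 intron, had log2 ratios of 0.29 and 0.16. Mirlet7d and Mirlet7b were higher under both scalings, by 0.18 and 0.23 with TMM. By total counts Mirlet7d had a log2 ratio of 0.05 (exact binomial test, adjusted p = 6.86e-07) and Mirlet7b of 0.10 (adjusted p = 1.60e-08).

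Mirlet7e changed sign with the scaling, from 0.10 with TMM (exact binomial test, adjusted p = 3.59e-12) to -0.02 with total counts (adjusted p = 0.193), so no direction can be given. The let-7a and let-7c genes were called higher only with TMM, at log2 ratios of 0.23 to 0.26. With total counts their ratios of 0.10 to 0.13 came with counting standard errors of 0.075 to 0.086 and exact binomial adjusted p-values of 0.133 to 0.322. Beside these differences, the summed epithelial markers went from 52450 to 67435 CPM, but nearly all of that was Mir203, from 21094 to 35599 CPM, while Mir205 went from 8705 to 7509 CPM. The mesenchymal sum went from 17643 to 12119 CPM, mostly through Mir214, from 16135 to 11066 CPM. The endothelial marker Mir126a went from 41674 to 54165 CPM. The skeletal muscle sum went from 11714 to 13349 CPM through Mir206 alone, from 11447 to 13094 CPM. Mir133b, at 265 and 254 CPM, was not called under either scaling. Mir1a-1 had only 3 and 6 counts, and Mir1a-2 has no row. The part of these in the let-7 differences was not tested.

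**Figure D5:**
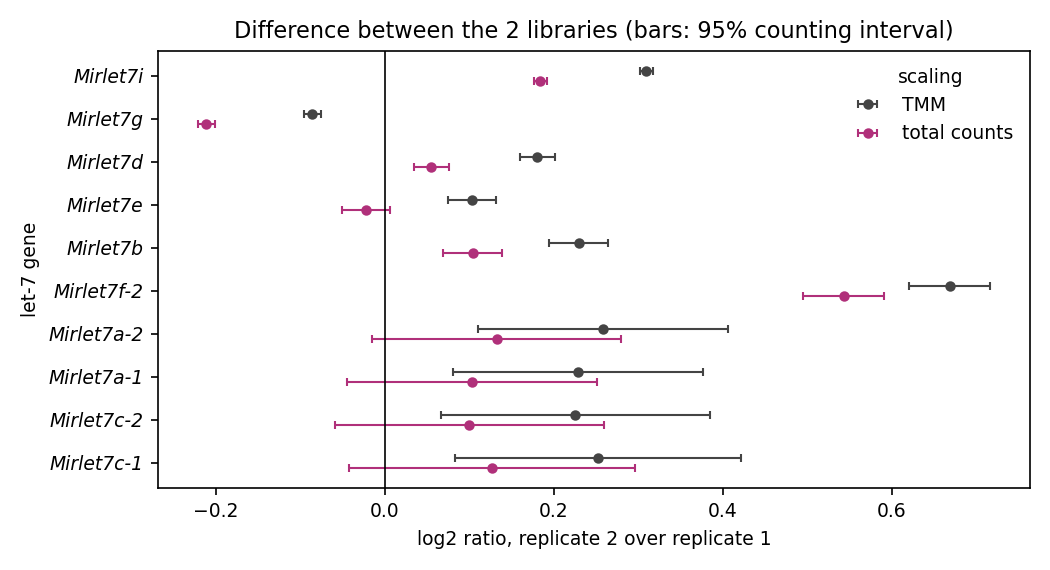
Log2 ratio of replicate 2 over replicate 1 for each let-7 gene, with TMM library sizes and with total counts, and 95% counting intervals as bars. Mirlet7f-2 lies highest at 0.67 and 0.54, Mirlet7g lies below 0 under both scalings at -0.09 and -0.21, and Mirlet7e crosses 0 between them.

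Outside the family, 97 genes had a mean level of 1000 CPM or more. Among them the log2 ratios by total counts nearest to that of Mirlet7i were those of Mir99a (0.19), Mir484 (0.19) and Mir200b (0.18). This likeness rests on 2 samples and carries no test. A search of the mature mouse sequences for the let-7 seed found, beside the let-7 genes and Mir98, Mir7k and Mir1961, which had 0 counts in both libraries. A count of 0 allows up to 3 counts, or 1.10 CPM in replicate 1 and 0.454 CPM in replicate 2.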

How the data were processed

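The authors deposited raw read counts per miRNA gene for each library, on mm10 with GENCODE M4, per the metadata text beside the counts. The aligner and counter are not named there or in the labels. Every library has 1973 gene rows with counts of both strands, the gene strand and the opposite strand, the strands being inferred from the STAR-like layout. Summary rows were left out of totals. Symbols came from GENCODE M21 on the same assembly (1894 of 1973 identifiers), and sequences from RefSeq. With no genome sequence at hand, shared guides were searched in RefSeq hairpins only. Levels are CPM of gene-strand counts. TMM sizes came from edgeR 4.0.16 (R 4.3.3), on genes with a mean of at least 10 counts. Log2 ratios used a prior of 0.5 counts. Exact binomial tests (scipy 1.17.1) were adjusted by Benjamini-Hochberg at 0.05 and checked on simulated counts. The simulated counts held counting error only, as the test assumes, so the check does not cover other variation between libraries. Named genes were all members, their cluster neighbours, same-seed genes and the 3 nearest in ratio to Mirlet7i. The members and lists were chosen with earlier results of these data known. Alternatives were the strand column, denominators, DESeq2 1.42.0 size factors, filters, the prior, thinning and leaving out each replicate. The p-values cover counting error only, and the SDs the spread between these 2 samples.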

Additional observations from a re-analysis of the deposited data

Results flagged for a closer look

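Counts on the strand opposite to the annotated gene were not part of the main measurement except for Mirlet7e. Over Mirlet7f-1, the opposite strand of Gm24111 held 286 counts in replicate 1 and 748 in replicate 2, above the 3 counts that a count of 0 allows. Opposite to Mirlet7b there were 4 counts in replicate 1 and 21 in replicate 2, beside 9060 and 23641 on its own strand.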

How the results depend on the processing

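The let-7 sum of 139919 CPM became 133828 with counts of both strands, 133825 with the both-strand total as denominator and 68397 CPM with all reads as denominator. It was 67120 with Mirlet7i left out of sum and total, 134798 without the Mirlet7e counts and 145675 with Mir98. It ran from 137262 to 142575 when either replicate was left out, and was 140028 with Gm24111, an alternative chosen after seeing the data. The Mirlet7i share of 55.7% ran from 53.2% to 58.2% without 1 replicate and moved by less than the spread between replicates under its other alternatives. The let-7 genes called higher fell from 9 to 4 with total counts and to 4 with totals without Mirlet7i, and all genes called higher from 103 to 64 and 67. Under these the log2 ratio of Mirlet7e turned to -0.023 and -0.0070. Of 80 single-gene comparisons of the replicates, 69 kept direction and call, 9 lost the call and 2 reversed. With replicate 2 thinned to the depth of replicate 1, Mirlet7c-2 lost its call (exact binomial test, adjusted p = 0.0605). DESeq2 size factors, count filters and the prior changed no call or direction of a let-7 gene. The comparison of the replicates needs both libraries, so it was not repeated without either. Beside the 6 genes with a shared guide, 6 shared any stretch of 20 bases with another let-7 hairpin and 9 any stretch of 18. The stretch of 18 bases added Mirlet7b, Mirlet7g and Mirlet7i, whose whole guides are their own. Depth limits the lowest 4 members, with 384 to 505 counts in replicate 1.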

Other observations

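Mir7j, chosen after its values were seen, encodes let-7j, which the Mirlet7 symbols and the seed search both leave out. Its mature sequence in RefSeq is shown with bases 2 to 8 in capitals.
let-7j: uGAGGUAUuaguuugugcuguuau
Over its first 22 bases it differs from let-7i by G8U alone, with the base of let-7i first, and that base is the last of the seed. The row had 213 counts (78.3 CPM) in replicate 1 and 809 (123 CPM) in replicate 2, a mean of 100 ± 31.3 CPM (SD, n = 2), next to 78025 CPM for Mirlet7i. Its log2 ratio between the libraries was 0.77 with TMM (exact binomial test, Benjamini-Hochberg adjusted p = 1.35e-12) and 0.64 with total counts (adjusted p = 6.52e-09), with a counting standard error of 0.11.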
